A study of Mus musculus with 5 samples.

Results

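The heat shock proteins and their J-domain (DnaJ) and Bag co-chaperones were followed in hearts of diabetic Akita mice and of wild type mice. A gene belonged to the family when the platform annotation gave its probe set a single symbol beginning Hspa, Hspb, Hspd, Hspe, Hsph, Hsp90, Dnaja, Dnajb or Dnajc, or reading Bag1 to Bag6. This rule found 74 of the 22180 genes with such an annotation, and 70 of the 74 passed the filter on dim genes and were tested among 15528. The Akita group held 2 arrays (replicates 1 and 3) and the wild type group 3 arrays (replicates 3, 4 and 5), all hearts being from C57BL/6 males of 12 weeks. Akita mice are a type 1 diabetic model with a mutation in the Insulin 2 gene, written Ins2+/- in the study's design text, and the wild type mice shared their genetic background. Whether every array had its own animal is not stated in the labels, so p-values reflect only how much these arrays vary, which could be technical. Each value is the log2 of an array signal, so a log2 difference of 1 is a doubling, and signals of different genes were not set against each other because probes differ in brightness. The arrays give no read depth, and their number limits the precision.

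Heat shock proteins are chaperones: they hold, fold or hand over other proteins. Hsp70 proteins bind and release unfolded stretches in a cycle driven by ATP. DnaJ proteins bring clients to Hsp70 and start that cycle, while Bag proteins and Hsp110 proteins release the nucleotide and so the client. Hsp90 acts late on kinases and receptors, and small heat shock proteins bind unfolding proteins without ATP, several of them at the contractile filaments of heart muscle. The factor HSF1 switches on many of these genes under stress, and a separate response serves the endoplasmic reticulum (ER).

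No member passed an adjusted p of 0.05. On the deposited scale the family's median difference was slightly lower in Akita hearts, at -0.08, against -0.03 over all genes tested. With the arrays centred on the genes tested both medians turned positive, to 0.015 and 0.06. A pair of co-chaperones stood out by their p-values, Dnajc30 of mitochondria and Bag3 of muscle, which were lower in both Akita arrays. Of the 14 members of the Hsp70 class, Hspa8, Hspa9 and Hspa5 lay within 0.04 log2 units of wild type at the probe sets used. In 5 of the 14 both Akita arrays lay below every wild type array, against 19.9% of all genes tested. By limma with Benjamini-Hochberg adjustment over all genes, 0 of 70 members were called, where 0.328% of all genes tested were. At an adjusted p of 0.1, 1 member passed, where 0.618% of all genes did. At an unadjusted p under 0.05 there were 12 members (17.1%), against 13.6% of all genes tested. Of these 12, 3 were higher in Akita and 9 lower, and the shares over all genes were 4.13% and 9.49%. An unmoderated model also called 0 members. At an unadjusted p under 0.05 it gave 4 higher and 14 lower, where 11.1% of all genes passed. The plot of differences by class shows that most intervals crossed 0.

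**Figure D1:**
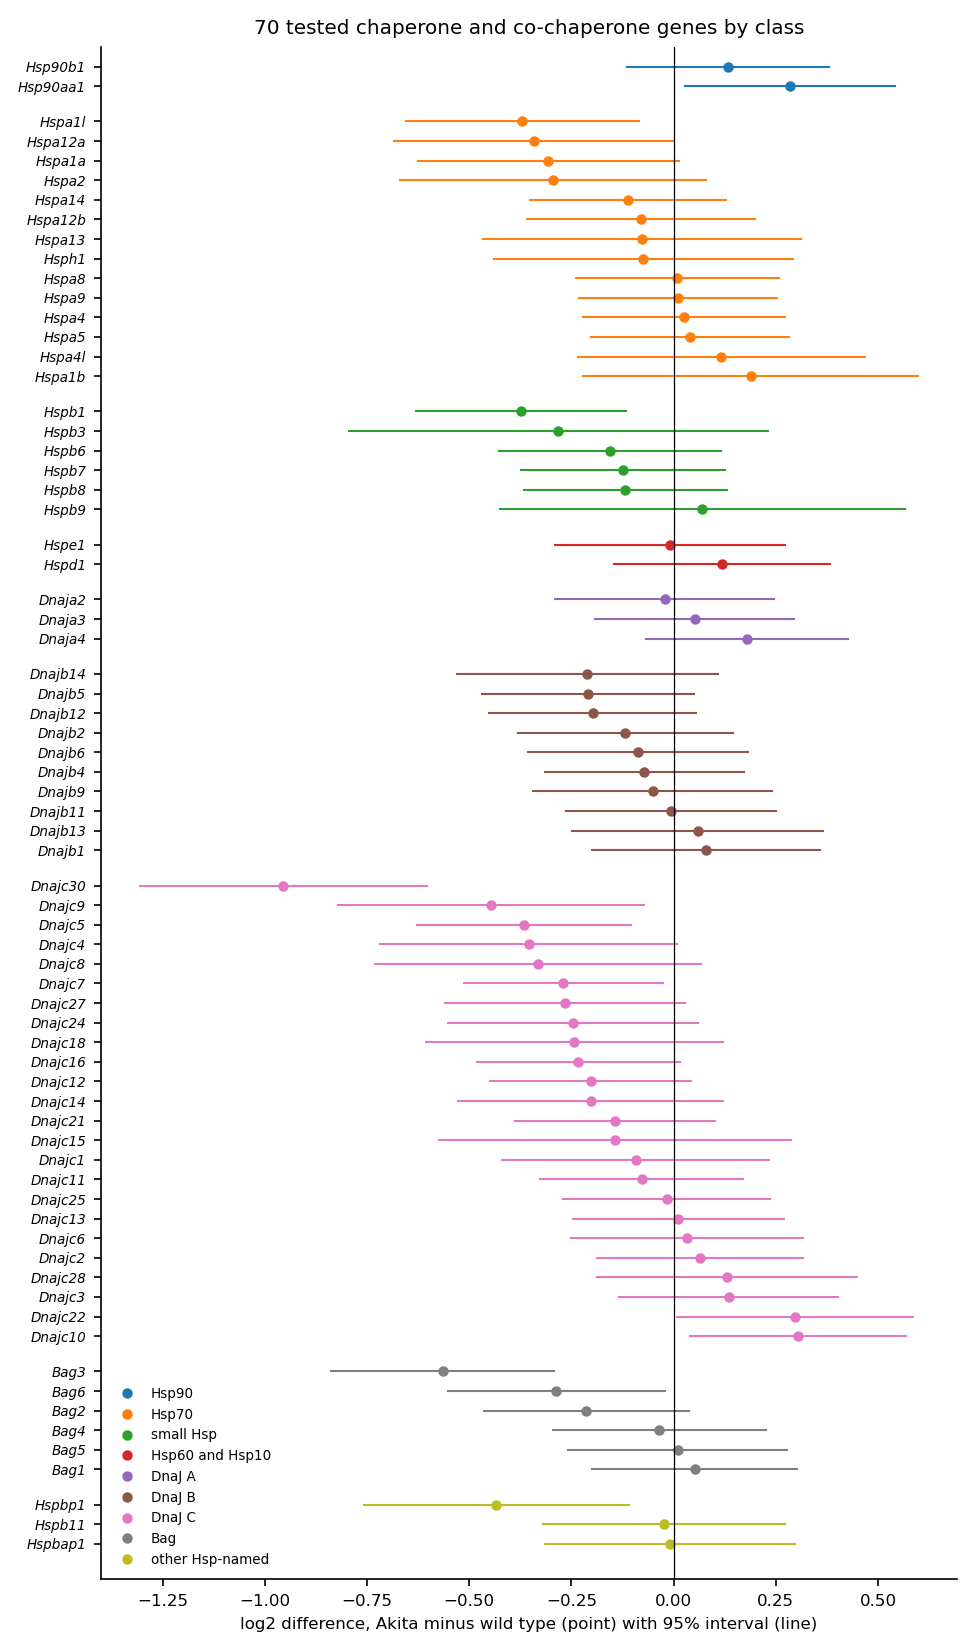
Log2 difference, Akita minus wild type, of the 70 tested members (points) with 95% intervals from the moderated fit (lines), coloured and grouped by class. Dnajc30 at -0.96 and Bag3 at -0.57 lie farthest from 0, and the points of Hspa8, Hspa9 and Hspa5 lie within 0.04 of it.

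In 33 members (47.1%) the Akita and wild type arrays did not overlap, where 29.7% of all genes tested did not. Both Akita arrays lay above all wild type arrays in 7 members (10%), against 9.89% of all genes, and below them in 26 members (37.1%), against 19.9% of all genes. The difference was below 0 in 47 of 70 members, or 67.1%, against 56.4% of all genes tested. The median difference was -0.08 over the tested members and -0.03 over all genes tested. These directions depended on the scaling of the arrays. With each array centred on its median over the genes tested, 45.7% of members and 37.7% of all genes lay lower. The members' median became 0.015 and that of all genes 0.06. With each array centred on its median over all probe sets, the shares were 85.7% and 72.6%. The members' median was then -0.16 and that of all genes -0.12. Members below the whole wild type range numbered 14 with the arrays centred on the genes tested (12.4% of all genes), 29 with the arrays centred on all probe sets (25.7%) and 23 with quantile normalization again (20.4%).

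The tilt was largest at middling signal, where genes in general also lay lower. Among members with a mean signal from 6 to 8, 27 of 32 lay lower with a median difference of -0.20, and over all 5713 genes in that range the median was -0.10. Among the 27 members with a mean of 8 or more, 14 lay lower and the median was -0.01, against -0.05 over all genes in that range. Among the 11 members with a mean under 6, 6 lay lower and the median was -0.01, against 0.05 over all such genes.

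**Figure D2:**
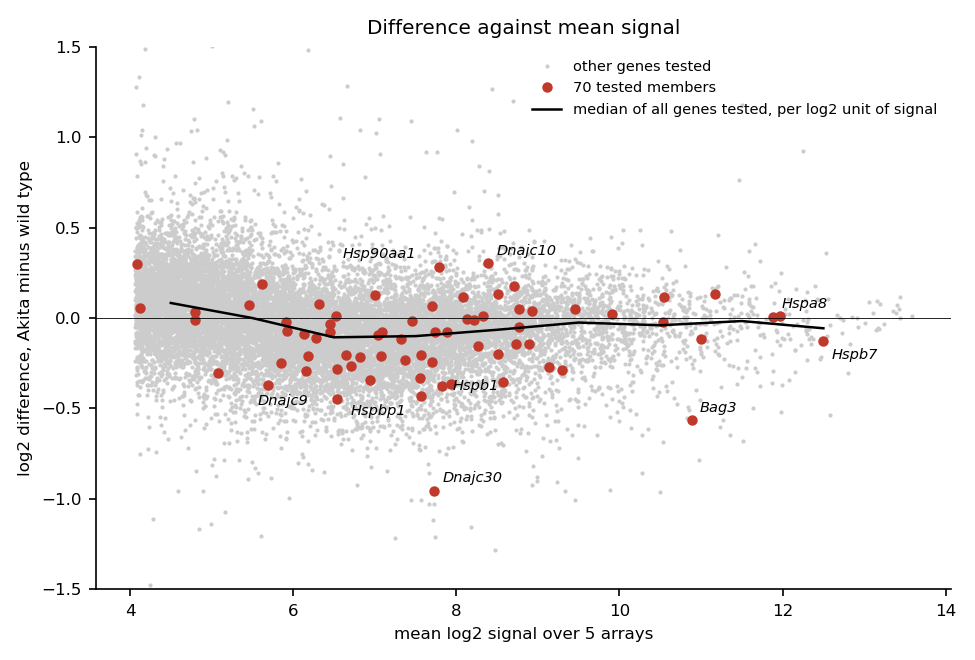
Log2 difference, Akita minus wild type, against the mean log2 signal over 5 arrays, for the 70 tested members (red) and all other genes tested (grey), with the median of all genes per log2 unit of signal as a line; 26 genes lie outside the axis limit of 1.5. Members between 6 and 8 sit mostly under the line, and those above 8 scatter around it except Bag3.

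The arrays themselves differed in ways that touch these values. Median signals over all probe sets were 4.71 and 4.6 in Akita replicates 1 and 3, against 4.53, 4.56 and 4.62 in wild type replicates 3, 4 and 5. The members' median deviation from the wild type mean was -0.11 in Akita replicate 1 and -0.06 in replicate 3, against -0.02 to 0.02 in wild type. All 7 cardiomyocyte markers were measured at a summed level of 84.1 and 83.7 log2 units in Akita, against 84.4 to 84.9 in wild type. Atrial markers stood apart in Akita replicate 3, with a summed level over 5 of 5 genes of 38.8 and 53.8 in Akita replicates 1 and 3, against 39.7 to 41.0 in wild type. Of 15 immediate early genes, quick responders to stimuli and handling, 14 lay lower, with a summed level of 101.2 and 99.2 in Akita, against 103.0, 107.8 and 108.7 in wild type. The 4 macrophage markers summed to 25.1 and 26.4 in Akita, against 26.6 to 27.3 in wild type. Fibroblast markers summed to 44.4 and 47.3 in Akita, against 43.7 to 44.7 in wild type, and the 3 tested white adipocyte markers to 16.1 and 17.3 in Akita, against 14.9 to 15.2 in wild type, with Adipoq and Lep under the filter. The 2 tested brown adipocyte markers summed to 13.72 and 15.64 in Akita, against 12.4 to 12.7 in wild type, and the 4 tested skeletal muscle markers to 32.7 and 32.6 in Akita, against 33.2 to 33.5 in wild type, with Elovl3 and Mylpf under the filter. The part of these markers in the members' values was not tested. In whole tissue, fewer cells of a type and less RNA per cell cannot be told apart.

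**Figure D3:**
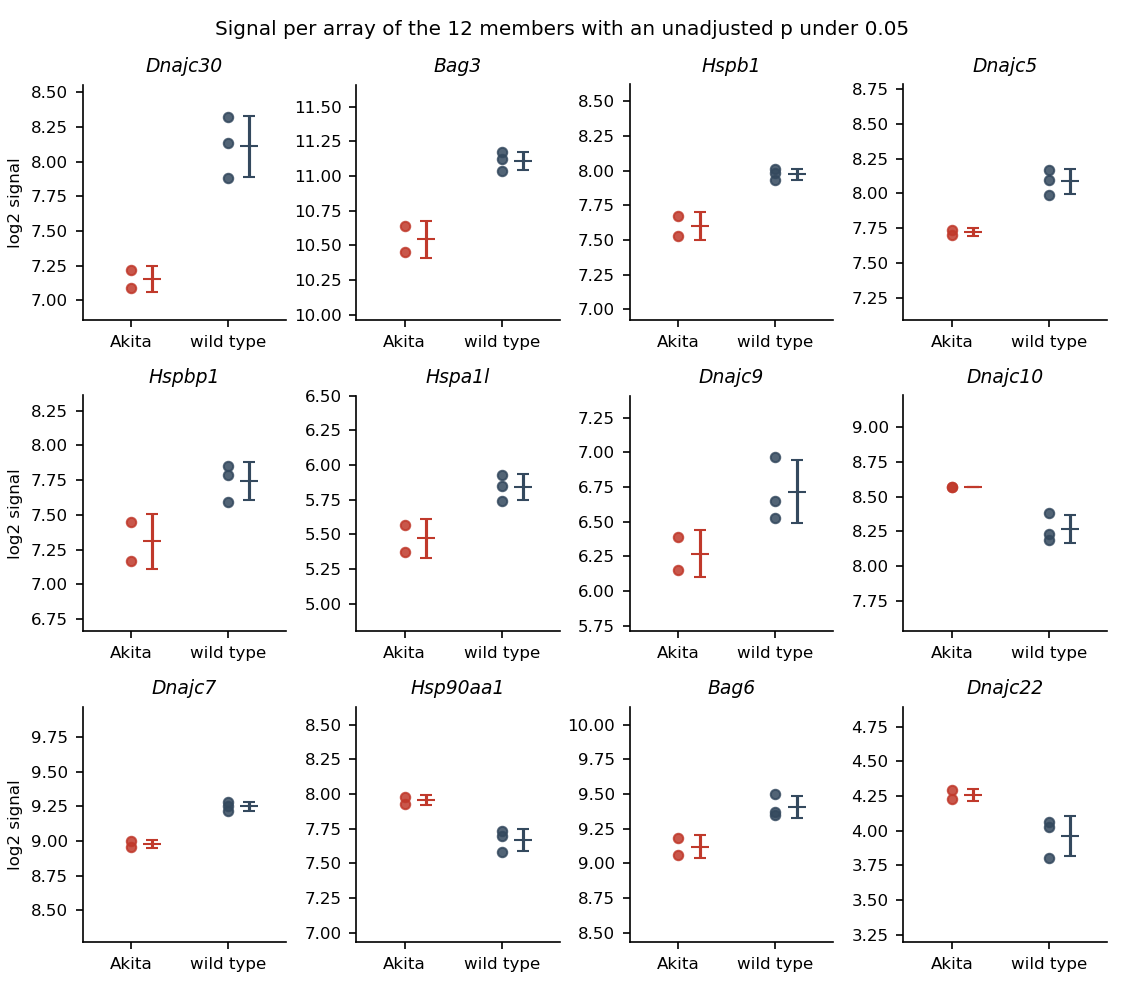
Log2 signal per array (points) with mean and SD beside them, Akita left and wild type right, for the 12 members with an unadjusted p under 0.05, in order of p; all panels span the same log2 range. Akita and wild type points are apart in every panel, with Akita above in Dnajc10, Hsp90aa1 and Dnajc22 and below in the other 9. The panels were picked by p from these same arrays, so their separation is no further evidence. The groups do not overlap in 29.7% of all genes tested.

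Both Hsp90 genes that the name rule found lay higher in Akita hearts. On the deposited scale both Akita arrays were above all wild type arrays in each, as in 9.89% of all genes tested. Their median difference of 0.21 became 0.12 with the arrays centred on all probe sets and 0.30 with the arrays centred on the genes tested. Hsp90aa1, the stress-inducible cytosolic Hsp90, had log2 signals of 7.98 and 7.93 in Akita, against 7.70, 7.58 and 7.73 in wild type. The groups did not overlap. The log2 difference was 0.29 (SE 0.11, 1.22-fold), with an adjusted p of 0.327 by limma. Hsp90b1, the ER form known as Grp94, stood at 11.21 and 11.29 in Akita and 11.14, 11.13 and 11.08 in wild type, again without overlap, but its interval of -0.11 to 0.38 held 0. Its difference of 0.13 became 0.05 with the arrays centred on all probe sets. Hsp90ab1, the constitutive cytosolic form, was not analysed here. Trap1, the mitochondrial Hsp90 relative outside the name rule, lay lower. It had 9.39 and 9.33 in Akita, against 9.41, 9.52 and 9.44 in wild type (difference -0.10, interval -0.35 to 0.15).

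The Hsp70 class gave 6 of 14 members higher and 8 lower. Both Akita arrays lay below every wild type array in 5 and above in 0, against 19.9% and 9.89% of all genes tested. The class median of -0.08 became 0.02 with the arrays centred on the genes tested. At the probe sets used, 3 core members differed by at most 0.04. Hspa8, the constitutive Hsc70, had 11.91 and 11.86 in Akita, against 11.82, 11.89 and 11.92 in wild type, a difference of 0.01 with a 95% interval of -0.24 to 0.26. That was the brightest of 4 probe sets, and with their mean the difference was 0.10. A dimmer one read 9.58 and 9.09 in Akita and 9.29, 9.07 and 9.20 in wild type. A probe set shared with Snord14e differed by -0.235. Hspa9, the mitochondrial Hsp70, had 11.97 in both Akita arrays, against 11.99, 11.94 and 11.95 in wild type (interval -0.23 to 0.25). Hspa5, the ER Hsp70 called BiP, had 8.97 and 8.93 in Akita and 8.91, 8.89 and 8.93 in wild type (interval -0.20 to 0.28). In each of these 3 genes the groups overlapped. Hspa4, Hspa4l and Hsph1, the Hsp110 proteins that act as exchange factors for Hsp70, differed by 0.03, 0.12 and -0.08.

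The stress-inducible pair Hspa1a and Hspa1b, which encode nearly the same protein, gave values of opposite sign over both Akita arrays but not without Akita replicate 3, the array with high atrial markers. Hspa1a stood at 4.79 and 4.99 in Akita, against 5.03, 5.35 and 5.21 in wild type (difference -0.31, SE 0.14, adjusted p = 0.383 by limma). Hspa1b stood at 5.48 and 5.97 in Akita and 5.41, 5.73 and 5.47 in wild type (difference 0.19, adjusted p = 0.684), and its Akita arrays lay on either side of the highest wild type array. The Hspa1b difference was -0.06 without Akita replicate 3 and 0.43 without Akita replicate 1, and those for Hspa1a were -0.41 and -0.21. A probe set that the annotation gives to both genes read 3.06 and 3.2 in Akita and 3.01, 2.65 and 3.13 in wild type. Such close copies can share probe signal, so the values of each are uncertain. The promoter windows show how alike the copies are: 296 of 300 bases agree between them. Windows run from 250 bases before to 50 after the gene start and come from RefSeq on GRCm38.p6. Both are on the minus strand, at chr17:34972107-34972406 for Hspa1a and chr17:34959189-34959488 for Hspa1b, and capitals mark the 4 bases that differ.
Hspa1a: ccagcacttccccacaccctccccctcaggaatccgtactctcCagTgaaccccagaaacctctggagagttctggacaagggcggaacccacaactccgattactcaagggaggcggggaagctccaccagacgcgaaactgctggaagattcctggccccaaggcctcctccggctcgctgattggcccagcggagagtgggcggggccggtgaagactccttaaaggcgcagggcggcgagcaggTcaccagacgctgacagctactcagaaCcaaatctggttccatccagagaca
Hspa1b: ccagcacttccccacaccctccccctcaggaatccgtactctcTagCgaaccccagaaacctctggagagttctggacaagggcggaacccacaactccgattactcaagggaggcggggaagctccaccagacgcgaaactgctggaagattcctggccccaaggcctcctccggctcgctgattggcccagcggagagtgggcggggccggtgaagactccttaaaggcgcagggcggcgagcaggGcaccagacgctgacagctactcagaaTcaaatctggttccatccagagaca

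Hspa1l, a neighbour of that pair known from the testis, had the smallest p of the class. It read 5.57 and 5.37 in Akita, against 5.85, 5.93 and 5.74 in wild type. The groups did not overlap, and the log2 difference was -0.37 (SE 0.12, adjusted p = 0.276 by limma). A second, dimmer Hspa1l probe set read 4.63 and 4.54 in Akita and 4.86, 4.54 and 4.75 in wild type, where the groups overlapped. Hspa12a, an atypical Hsp70, had 6.56 and 6.91 in Akita, against 7.23, 7 and 7 in wild type. Its difference was -0.34, with -0.17 without Akita replicate 1 and -0.52 without Akita replicate 3. Hspa2, known from male meiosis, lay below wild type in both Akita arrays as well (difference -0.30, interval -0.67 to 0.08), and its difference was -0.16 without wild type replicate 4. Of the rest, Hspa12b, Hspa13 and Hspa14 differed by -0.08, -0.08 and -0.11.

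Of 6 small heat shock proteins 5 lay lower, with a median of -0.14 that became -0.05 with the arrays centred on the genes tested. In 4 of the 6 both Akita arrays were under every wild type array, as in 19.9% of all genes tested. Hspb1, called Hsp25 in mice, which caps actin filaments and binds unfolding proteins, had 7.53 and 7.67 in Akita, against 7.93, 8.01 and 7.98 in wild type. The groups were 0.26 apart at their nearest arrays. The log2 difference was -0.37 (SE 0.11, 0.772-fold), with an adjusted p of 0.234 by limma. A dimmer probe set of Hspb1 read 4.88 and 4.92 in Akita and 5.06, 4.76 and 4.95 in wild type, and there the groups overlapped; with the mean of both probe sets the difference was -0.20.

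The muscle-enriched small heat shock proteins differed by less. Hspb6, which binds actin-associated proteins in muscle, stood at 8.13 and 8.22 in Akita and 8.44, 8.32 and 8.23 in wild type. Hspb7, a cardiac member, stood at 12.39 and 12.46 in Akita and 12.60, 12.55 and 12.50 in wild type. Hspb8, the partner of Bag3, stood at 10.91 and 10.94 in Akita and 10.98, 11.08 and 11.07 in wild type. In each the Akita arrays lay just under the lowest wild type array, by 0.01 to 0.04, and the 95% intervals of the differences (-0.43 to 0.12, -0.37 to 0.12 and -0.37 to 0.13) held 0. Those gaps are smaller than the shift between scalings, which moved the median of all genes from -0.03 as deposited to 0.06 with the arrays centred on the genes tested. Without wild type replicate 3 the Hspb6 difference of -0.16 became -0.10. Hspb3, also a muscle gene, varied between replicates, at 6.04 and 6.69 in Akita and 6.90, 6.63 and 6.41 in wild type. Its difference of -0.28 became 0.04 without Akita replicate 1, -0.61 without Akita replicate 3 and -0.16 without wild type replicate 3. Hspb9, known from the testis, differed by 0.07. Hspb2 shared its probe set with its neighbour Cryab, the alpha-B-crystallin gene, which read 8.34 and 8.21 in Akita and 8.26, 8.50 and 8.41 in wild type. The brighter of 2 probe sets of Cryab alone, outside the family rule, stood at 11.57 and 11.45 in Akita, against 11.93, 11.70 and 11.79 in wild type (difference -0.30, SE 0.12, adjusted p = 0.345 by limma).

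The window of Hspb1 on the plus strand, chr5:135887669-135887968, is shown because this gene led its class and holds 2 heat shock elements, the inverted repeats that HSF1 is known to bind. Capitals mark them.
Hspb1: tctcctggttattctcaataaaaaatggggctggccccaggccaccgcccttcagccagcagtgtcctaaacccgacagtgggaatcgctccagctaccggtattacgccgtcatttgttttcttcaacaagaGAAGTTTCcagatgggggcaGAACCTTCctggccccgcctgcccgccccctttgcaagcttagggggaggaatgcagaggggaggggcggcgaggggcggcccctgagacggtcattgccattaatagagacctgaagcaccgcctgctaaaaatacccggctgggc

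The mitochondrial chaperonin pair, Hspd1 (Hsp60) and its lid Hspe1 (Hsp10), lay on either side of 0. Hspd1 had 10.67 and 10.56 in Akita, against 10.54, 10.40 and 10.55 in wild type (difference 0.12, interval -0.15 to 0.38). Hspe1 had 8.23 and 8.19 in Akita, against 8.07, 8.31 and 8.28 in wild type (difference -0.01, interval -0.29 to 0.27). The pair is transcribed from a shared region in opposite directions, and their windows overlap by 285 bases. The Hspe1 window, chr1:55087898-55088197 on the plus strand, holds 2 overlapping heat shock elements of 3 units, in capitals.
Hspe1: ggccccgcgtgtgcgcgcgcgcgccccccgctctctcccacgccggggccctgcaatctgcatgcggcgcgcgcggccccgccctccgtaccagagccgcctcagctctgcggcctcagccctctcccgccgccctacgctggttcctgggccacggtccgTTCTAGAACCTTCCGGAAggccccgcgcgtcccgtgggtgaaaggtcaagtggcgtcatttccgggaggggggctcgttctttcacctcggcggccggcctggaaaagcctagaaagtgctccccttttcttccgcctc

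Of 3 DnaJ A genes 2 lay higher, with a median of 0.05 that became -0.03 with the arrays centred on all probe sets. Dnaja4 stood at 8.85 and 8.79 in Akita, above all wild type arrays at 8.61, 8.62 and 8.69 (difference 0.18, adjusted p = 0.504 by limma). Dnaja3, the mitochondrial Tid1, differed by 0.05 and Dnaja2, a cytosolic partner of Hsc70, by -0.02. Dnaja1 shared its probe set with a microRNA locus, which read 6.70 and 6.73 in Akita and 6.87, 6.76 and 6.85 in wild type.

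Of the 12 DnaJ B genes, 10 were tested, and 8 of these lay lower, with a median of -0.08 that became 0.015 with the arrays centred on the genes tested. The stress-inducible Dnajb1, the classical Hsp40, read 6.48 and 6.24 in Akita, against 6.31, 6.30 and 6.23 in wild type, an overlap, with a difference of 0.08. Dnajb5 read 7 and 6.90 in Akita and 7.10, 7.24 and 7.14 in wild type, and Dnajb12, an ER membrane protein, 8.42 and 8.37 in Akita and 8.61, 8.65 and 8.52 in wild type. Those groups did not overlap, with differences of -0.21 and -0.20 and adjusted p of 0.460 and 0.473 by limma. Dnajb14, the relative of Dnajb12, differed by -0.21 with overlap, and by -0.05 without Akita replicate 1 and -0.38 without Akita replicate 3. Dnajb2, Dnajb6 and Dnajb4, cytosolic co-chaperones, differed by -0.12, -0.09 and -0.07. A dimmer probe set that Dnajb6 shares with Gm5129 went the other way, at 4.86 and 4.72 in Akita and 4.37, 4.41 and 4.69 in wild type. The ER proteins Dnajb9 and Dnajb11 differed by -0.05 and -0.01, and Dnajb13, known from sperm tails and cilia, by 0.06. Dnajb3 and Dnajb7 lay under the filter at 2.68 to 3.25.

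The DnaJ C class, whose members have little in common beyond the J domain, held the largest difference of the family. Of 26 genes 24 were tested, and 17 lay lower and 7 higher. Both Akita arrays lay under every wild type array in 10 of the 24 and above in 3, against 19.9% and 9.89% of all genes tested. The median difference was -0.17. It became -0.08 with the arrays centred on the genes tested, -0.11 with quantile normalization again and -0.10 without Akita replicate 1. Dnajc30, a J protein of the inner mitochondrial membrane whose loss in humans impairs respiratory complex I, stood at 7.22 and 7.09 in Akita, against 8.32, 7.88 and 8.13 in wild type. The gap between the groups, 7.22 to 7.88, was wider than the range within either. The log2 difference was -0.96 (SE 0.15, 0.516-fold), with an adjusted p of 0.0747 by limma. It passed 0.05 with the arrays centred on all probe sets (adjusted p = 0.025) and with an intensity trend and robust prior (adjusted p = 0.0141). Over the alternatives the adjusted p ran from 0.0141 to 0.263 with moderated limma fits and was 0.361 with the unmoderated model, and the difference lay between -1.07 and -0.85 with each array left out. A probe set shared with its neighbour Bud23 read 6.88 and 7.10 in Akita and 7.42, 7.24 and 7.09 in wild type, a smaller difference of -0.26 with overlap. Of the other J proteins of mitochondria, Dnajc15 differed by -0.14, Dnajc11 by -0.08 and Dnajc28 by 0.13, with adjusted p of 0.719 or more by limma. Dnajc19 shares its probe sets with a pseudogene, and the brighter of these read 10.36 in both Akita arrays and 10.37 to 10.41 in wild type.

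Dnajc5, the cysteine string protein of secretory vesicles, had 7.74 and 7.70 in Akita, against 7.99, 8.10 and 8.17 in wild type. Its groups did not overlap, and the log2 difference was -0.37 (SE 0.11, adjusted p = 0.242 by limma). Dnajc9, which also chaperones histones, had 6.15 and 6.39 in Akita, against 6.65, 6.97 and 6.53 in wild type (difference -0.45, SE 0.16, adjusted p = 0.303). Dnajc7, which links Hsp70 and Hsp90, had 8.96 and 9 in Akita, against 9.22, 9.25 and 9.28 in wild type (difference -0.27, adjusted p = 0.327). The Dnajc7 arrays lay close together within each group and did not overlap between the groups. Its difference became -0.18 with the arrays centred on the genes tested.

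Of the C class genes that lay higher, Dnajc10 and Dnajc22 had the smallest p. Dnajc10, the ER reductase ERdj5, read 8.57 in both Akita arrays, against 8.38, 8.23 and 8.19 in wild type (difference 0.30, SE 0.11, adjusted p = 0.314 by limma). Dnajc22, known through its fly counterpart, which acts in endocytosis, was dim at 4.23 and 4.29 in Akita and 4.03, 3.8 and 4.06 in wild type (difference 0.30, adjusted p = 0.359). Dnajc3, the ER protein p58IPK, read 8.49 and 8.70 in Akita, against 8.48, 8.44 and 8.46 in wild type (difference 0.14), so that replicate 1 lay within 0.01 of wild type. Dnajc28, Dnajc2, Dnajc6 and Dnajc13 also lay on the higher side, at 0.13, 0.07, 0.03 and 0.01.

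The remaining C class genes lay lower without passing an unadjusted p of 0.05. Dnajc4, Dnajc16, Dnajc27, Dnajc12, Dnajc24 and Dnajc21 lay under every wild type array, as 19.9% of all genes tested did. Their differences were -0.36, -0.23, -0.27, -0.20, -0.25 and -0.14. The nearest arrays of the groups were 8.44 and 8.47 in Dnajc4 and 5.86 and 5.88 in Dnajc24. Those gaps are smaller than the shift between scalings, which moved the median of all genes from -0.03 to 0.06. Dnajc12 is known as a partner of aromatic amino acid hydroxylases, Dnajc24 makes a modified residue of elongation factor 2, and Dnajc21 acts in ribosome assembly. In Dnajc8, Dnajc18 and Dnajc14 the groups overlapped, at -0.33, -0.24 and -0.20, and Dnajc1 and Dnajc25 of the ER differed by -0.09 and -0.02. A probe set that Dnajc8 shares with Gm4928 went the other way, at 7.62 and 7.67 in Akita and 7.48, 7.54 and 7.61 in wild type. The probe set that Dnajc14 shares with Ormdl2 differed by -0.18. Dnajc5b and Dnajc5g lay under the filter at 3.23 to 4.21.

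Among the Bag genes, 3 of 6 lay below the whole wild type range, where 19.9% of all genes tested did, and Bag3 lay farthest. The class median of -0.12 became -0.03 with the arrays centred on the genes tested and -0.07 with quantile normalization again. Bag3 joins Hsp70 and Hspb8 at the Z-disc, the anchor of the contractile filaments, and passes damaged filament proteins to autophagy; mutations in it cause cardiomyopathy in humans. It had 10.45 and 10.64 in Akita, against 11.12, 11.17 and 11.04 in wild type. The nearest arrays of the groups were 0.40 apart, and the 2 Akita arrays differed by 0.19. The log2 difference was -0.57 (SE 0.12, 0.676-fold), with an adjusted p of 0.137 by limma. It passed 0.05 with an intensity trend and robust prior (adjusted p = 0.0116). Over the alternatives the adjusted p ran from 0.0116 to 0.481 with moderated limma fits and was 0.334 with the unmoderated model, and the difference was -0.66 without Akita replicate 3, the array with high atrial markers, and -0.47 without Akita replicate 1. Bag6, which guards newly made tail-anchored proteins, had 9.06 and 9.18 in Akita, against 9.37, 9.50 and 9.35 in wild type (difference -0.29, SE 0.11, adjusted p = 0.334 by limma). Bag2, an inhibitor of the ubiquitin ligase that works with Hsp70, had 6.66 and 6.72 in Akita and 6.93, 6.84 and 6.94 in wild type, a difference of -0.21. Bag1, Bag4 and Bag5 overlapped between the groups and differed by 0.05, -0.04 and 0.01.

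The window of Bag3 on the plus strand, chr7:128523333-128523632, is shown because it carries a heat shock element of 2 units at its very end, after the gene start; capitals mark it.
Bag3: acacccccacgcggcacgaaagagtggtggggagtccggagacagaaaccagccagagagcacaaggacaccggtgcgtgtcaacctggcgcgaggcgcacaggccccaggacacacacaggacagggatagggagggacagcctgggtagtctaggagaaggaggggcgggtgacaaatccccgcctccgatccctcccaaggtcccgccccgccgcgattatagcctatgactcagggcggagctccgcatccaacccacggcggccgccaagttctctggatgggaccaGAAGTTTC

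The name rule also took in 3 genes that are not heat shock proteins. Hspbp1, a nucleotide exchange factor of Hsp70, had 7.17 and 7.45 in Akita, against 7.85, 7.79 and 7.59 in wild type (difference -0.43, SE 0.14, adjusted p = 0.264 by limma). Its groups did not overlap. Hspbap1, which binds Hspb1, and Hspb11, a protein of intraflagellar transport, overlapped between the groups and differed by -0.01 and -0.02.

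Grouped by role across classes, the genes known to respond to HSF1 did not lie to one side on the deposited scale. Of 14 tested, 7 lay higher and 7 lower in Akita, and the median was 0.00, with Hsp90aa1 highest and Bag3 and Hspb1 lowest. The median of this list was not taken at other scalings. There the median of all genes became 0.06 (arrays centred on the genes tested) or -0.12 (centred on all probe sets). HSF1 itself was not analysed here, and Hsf2 and Hsf4 differed by -0.06 and -0.07. Of 14 ER members, 10 lay lower and 4 higher, with a median of -0.06 and a median deviation of -0.16 in Akita replicate 1 and 0.04 in replicate 3. The members shared with the unfolded protein response, Hspa5, Hsp90b1, Dnajc3, Dnajb9 and Dnajb11, differed by 0.04, 0.13, 0.14, -0.05 and -0.01. Of 8 mitochondrial members, 4 lay higher and 4 lower. All 5 tested muscle small heat shock proteins lay lower (Hspb3 not without Akita replicate 1), their median deviation being -0.20 and -0.10 in the Akita arrays, against -0.05 to 0.05 in wild type; with the arrays centred on the genes tested, the median of the small heat shock class was -0.05.

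**Figure D4:**
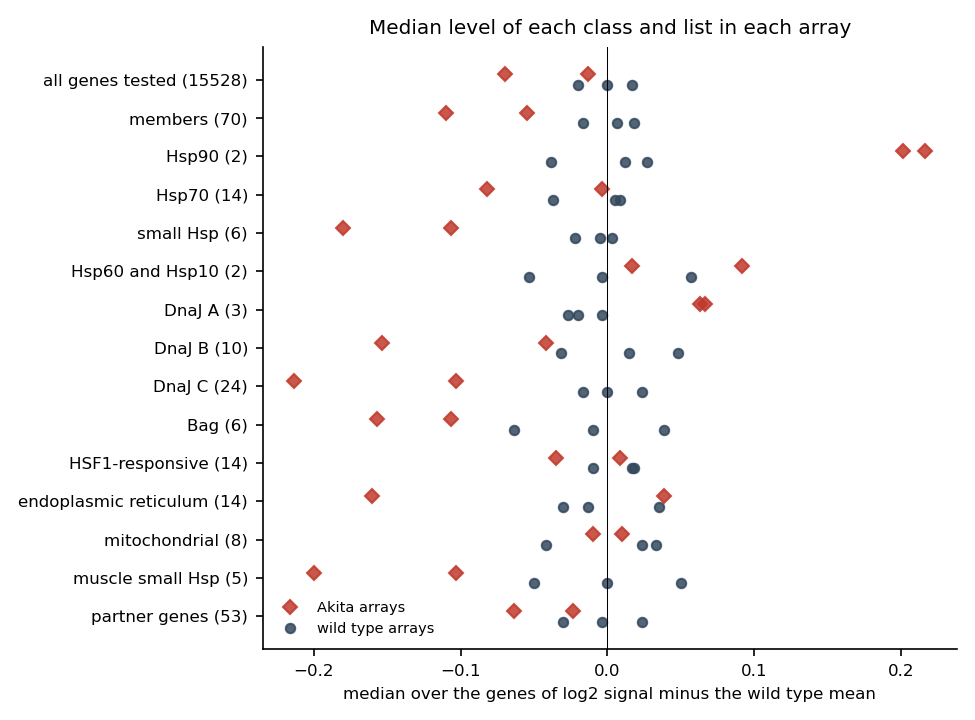
Median over each class or list of the log2 signal minus the wild type mean, per array (Akita, red diamonds; wild type, dark circles), with the number of tested genes in parentheses. Both Akita arrays lie left of all wild type arrays for the small Hsp, DnaJ B, DnaJ C and Bag classes and right of them for Hsp90 and DnaJ A; with other centrings of the arrays the medians of DnaJ A and DnaJ B change sign.

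Genes that work with the family but fall outside its name rule gave 0 calls among 53 tested, where 0.328% of all genes were called. At an unadjusted p under 0.05, 5 lay lower and 1 higher, against 9.49% and 4.13% of all genes, and the median of -0.03 was close to that of all genes. They comprised HSF factors, Hsp70 and Hsp90 partners, chaperonin and prefoldin subunits, mitochondrial partners and relatives of the small heat shock proteins. Odf1, a small heat shock relative known from sperm tails, has 2 probe sets, and the dimmer is not shown here. The brighter had 9.75 and 9.74 in Akita, against 10.24, 10.26 and 10.15 in wild type (difference -0.47, adjusted p = 0.158 by limma). Synpo2, a Z-disc protein that works with Bag3, had 8.82 and 9.01 in Akita, against 9.42, 9.40 and 9.24 in wild type (difference -0.44, adjusted p = 0.215). Clpx, which unfolds proteins for the mitochondrial protease Clpp, had 9.08 and 9.18 in Akita, against 8.82, 8.83 and 8.73 in wild type (difference 0.34, adjusted p = 0.269). Unc45a, a relative of the muscle myosin chaperone, differed by -0.39. Of 13 chaperonin and prefoldin genes, 7 lay higher and 5 lower, with a median of 0.03. Of them 2 lay above and 3 below the whole wild type range, against 9.89% and 19.9% of all genes tested. The 1 with an unadjusted p under 0.05 was Pfdn6, a prefoldin subunit, at 8.45 and 8.28 in Akita, against 8.62, 8.84 and 8.66 in wild type (difference -0.34, adjusted p = 0.307 by limma).

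Promoter windows were available for 61 of the 74 members. A heat shock element of 2 units was searched as GAANNTTC or TTCNNGAA, the same 2 units in either order. It was in the windows of 16 members (26.2%), against 17.0% of all genes with a window. An element of 3 units (GAANNTTCNNGAA or TTCNNGAANNTTC), which contains the shorter one, was in 4 members, Hspd1, Hspe1, Hsph1 and Dnajb6 (6.56%), against 0.662% of all genes. These letters are common in short form, and a match is not a bound site. The windows of Hspd1 and Hspe1 overlap by 285 of 300 bases, and 296 of 300 agree between Hspa1a and Hspa1b. The matches within each pair are therefore not independent. Of the 15 tested members with a 2-unit element, 4 lay higher and 11 lower in Akita, with a range from -0.57 for Bag3 to 0.30 for Dnajc10. The 43 tested members with a window and no element had a median of -0.0933, against -0.0867 in those with it.

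The ER stress response element (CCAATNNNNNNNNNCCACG and its reverse complement) was in the windows of Hspa5, Hsp90b1 and Dnajc3, 4.92% of members, against 0.137% of all genes with a window. These 3 genes lay higher in Akita by 0.04, 0.13 and 0.14, with adjusted p of 0.905, 0.628 and 0.653 by limma, and with the arrays centred on all probe sets the value for Hspa5 turned to -0.05. The windows of Hspa5, chr2:34771840-34772139, and Dnajc3, chr14:118937682-118937981, both on the plus strand, are shown with the element in capitals.
Hspa5: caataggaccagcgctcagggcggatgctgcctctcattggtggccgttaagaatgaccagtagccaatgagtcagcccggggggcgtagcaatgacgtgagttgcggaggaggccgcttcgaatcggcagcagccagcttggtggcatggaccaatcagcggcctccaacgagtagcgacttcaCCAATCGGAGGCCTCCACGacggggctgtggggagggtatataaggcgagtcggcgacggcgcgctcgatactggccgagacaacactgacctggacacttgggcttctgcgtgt
Dnajc3: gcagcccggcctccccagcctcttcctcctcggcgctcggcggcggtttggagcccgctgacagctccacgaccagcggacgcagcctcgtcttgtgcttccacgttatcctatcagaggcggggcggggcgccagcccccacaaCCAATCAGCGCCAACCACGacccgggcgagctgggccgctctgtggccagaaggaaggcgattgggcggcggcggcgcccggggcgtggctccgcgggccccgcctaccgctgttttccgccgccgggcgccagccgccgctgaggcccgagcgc

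**Figure D5:**
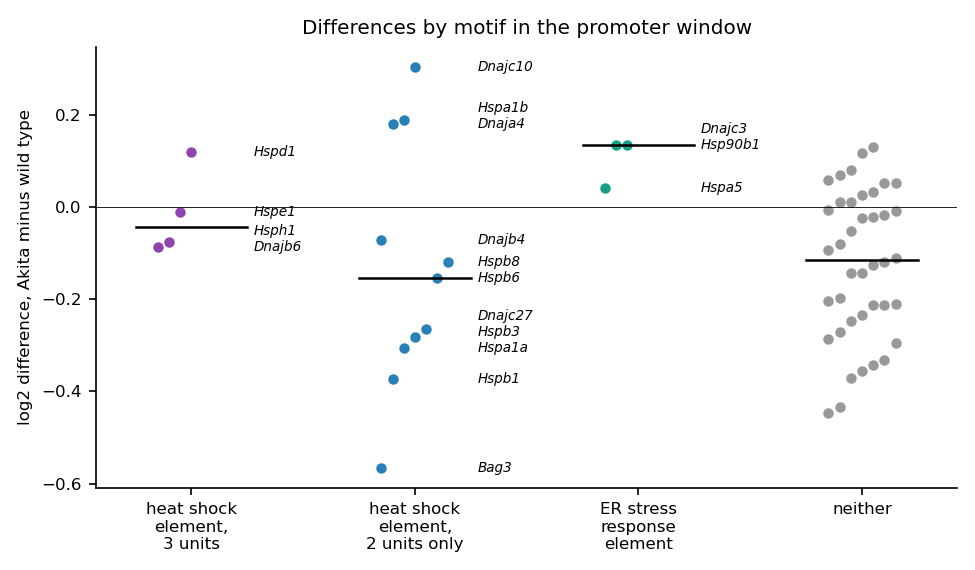
Log2 difference, Akita minus wild type, of tested members with a promoter window, by the motif in it (points, with medians as bars); members with an element of 3 units are drawn apart from those with 2 units only. Members with 2 units only spread from Bag3 at -0.57 to Dnajc10 at 0.30, and the 3 with an ER stress response element lie between 0.04 and 0.14, where Hspa5 changes sign with the arrays centred on all probe sets.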

How the data were processed

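Heart RNA was measured on whole-transcript arrays. The authors deposited 1 log2 signal for each probe set and array, made with Affymetrix Expression Console per the submitters' processing notes. Its version, algorithm and any genome build are not named in those notes or the labels, and the log base was read from the range of 1.27 to 13.66. Normalization between arrays, if it was done, would hide a shift common to most genes.

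Of 41345 probe sets, 23521 had 1 symbol, 1814 several and 16010 were not listed. Each gene took its probe set of highest mean over all 5 arrays, and genes whose mean fell below log2 4.06, the 30th percentile, were dropped. Groups came from the sample titles. Akita minus wild type was fitted over all 15528 genes with limma 3.58.1 in R 4.3.3 (lmFit, eBayes, two-sided, Benjamini-Hochberg), with 3 residual and 4.38 prior degrees of freedom; the fit was checked on data drawn with known changes. No batch was modelled, since the labels name none. No 2 arrays held the same values (at most 1.72% of all probe sets equal in a pair).

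Members and gene lists were chosen with earlier results of these data known. Named members were, per class, the 4 of smallest p and the 2 of highest signal, plus well-known members; others, and the separate class of 3 genes that are not heat shock proteins, were chosen after their values were seen. All 74 members matched a RefSeq gene of GRCm38.p6 by Entrez identifier. Alternatives were filters, probe set means, scalings, variance models, each array left out and a threshold of 0.1. Python 3.11.15, pandas 2.3.3 and matplotlib 3.10.9 made the tables and figures.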

Additional observations from a re-analysis of the deposited data

How the results depend on the processing

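Among the 70 tested members 0 were called at an adjusted p of 0.05, and this count became 1 with the arrays centred on all probe sets (Dnajc30), 2 with an intensity trend and robust prior (Dnajc30 and Bag3) and 1 at a threshold of 0.1; with each array left out it was 0, where without either Akita array the lone other one is assumed to vary like the wild type arrays. Members with an unadjusted p under 0.05 numbered 12, and 5 to 14 with an array left out: 5 without wild type replicate 4, 5 without Akita replicate 1 and 14 without Akita replicate 3, where 21.1% of all genes passed. The members' median of -0.0792 became -0.1642 with the arrays centred on all probe sets, where that of all genes was -0.1167. It became 0.015 with the arrays centred on the genes tested, a setting chosen after seeing the data, where that of all genes was 0.0625. With an array left out the members' median lay between -0.11 and -0.055. Genes called numbered 51, and 86 without a filter, 84 with the arrays centred on all probe sets, 30 with the arrays centred on the genes tested, 197 with trend and robust prior, 28 with array weights, 0 with an unmoderated model (11.1% at an unadjusted p under 0.05), 96 at a threshold of 0.1, and from 9 to 44 with an array left out. The difference of each of the 12 members with an unadjusted p under 0.05 kept its sign in every setting run in which it was tested (Dnajc22 was not with the filter at the 50th percentile). Of the 38 named members, up to 6 changed sign in a setting (Hspa8, Hspa9, Hspa5, Bag1, Dnaja3 and Dnajb1 with the arrays centred on all probe sets), all with differences under 0.3 in size. No paired analysis was possible because the groups share a single replicate number, 3.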
